A study of Homo sapiens with 4 samples.

Results

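The 59 genes described here encode the machinery that copies DNA in S phase and the enzymes that supply its building blocks, and were picked by gene symbol, with earlier results of these data known, from a table of 43450 gene IDs. All 59 symbols matched exactly 1 Ensembl ID each, and all 59 passed the filter on low values, a mean of at least 1 FPKM over the libraries. RNA was sequenced from BLaER1, a line of human leukaemic B cells with a C/EBPα transgene that, once induced, turns them into cells resembling macrophages. The groups were 2 libraries from cells with HAL7 knockdown, named replicate 0 and replicate 1, and 2 control libraries with the same numbers. HAL7 is a long non-coding RNA gene, and per the labels' protocols its RNA was targeted by adding 3 LNA GapmeRs, antisense oligonucleotides that direct RNase H to the bound RNA, to the culture medium without transfection. The sources used here give neither the control cells' treatment nor how long the oligonucleotides were present. The labels do not say whether replicates were separate cultures, so p-values reflect no more than how far these libraries scatter, and that scatter may be technical.

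Replication starts with licensing. In G1 phase the origin recognition complex, CDC6 and CDT1 load the ring-shaped MCM helicase onto DNA, and in S phase the cyclin-dependent and DBF4-dependent kinases recruit CDC45 and the GINS complex to activate it. Primase and the polymerases then copy the strands on a sliding clamp, PCNA, while thymidylate synthase, ribonucleotide reductase and related enzymes keep the nucleotide pools filled. Many of these genes are transcribed under E2F factors as cells pass from G1 into S phase. In RNA from a mixed culture, a larger share of cells in S phase and more RNA per cell cannot be told apart.

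Levels are given in FPKM, a fragment count scaled by transcript length and by library size, as deposited. HAL7 itself stood at 0.475 and 0.347 FPKM in knockdown libraries and at 0.726 and 0.613 FPKM in control libraries, a ratio of 0.614 without overlap, and the difference did not pass the test (limma adjusted p 0.32). The 12 B lineage markers were all above 1 FPKM in every library. They summed to 4510 to 4530 FPKM in knockdown and 4650 to 4710 FPKM in control libraries. The log2 change was below 0 in 10 of them, against 6877 of the 12935 genes tested. At an unadjusted limma p under 0.05, 2 were lower, against 9.35% of all genes. Their transcripts had a median GC content of 56.6%, against 48.6% over all genes tested. The median log2 change was -0.05 in these markers and -0.07 over the 3737 genes at 55% GC or more. Of 11 matched macrophage markers, 9 were under 1 FPKM in both groups, CD14 and LYZ among them, S100A8 and S100A9 were at 0 in every library, CSF1R and CD68 were above 1 FPKM, and the list summed to 36.6 to 40.3 FPKM in knockdown and 38.5 to 39.5 FPKM in control libraries. All 6 matched T cell markers and all 4 erythroid markers were under 1 FPKM in both groups. Of 3 fibroblast markers, COL1A1 alone was above 1 FPKM, and the list summed to 2.13 to 2.26 FPKM in knockdown and 2.62 to 3.34 FPKM in control libraries. The part of these lists in the results below was not tested. Relative depth, read from the steps of low FPKM values, was 1.77 and 1.59 in knockdown replicates 0 and 1 and 1 and 2.12 in control replicates 0 and 1, with the shallowest library set to 1. By the length of its longest annotated transcript, the least sampled of the 59 genes, CCNE1, corresponded to 437 to 949 fragments per library.

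Replication genes stood higher in knockdown than in control libraries, by small amounts and in most of the set. The log2 change, knockdown minus control on the log2(FPKM + 1) scale, was above 0 in 53 of 59 genes, against 46.8% of the 12935 genes tested. Its median was 0.13 over the 59 genes and -0.01 over all genes tested, and its range was -0.11 in CDT1 to 0.32 in CCNE2. No single gene passed the test over all genes: 0 of 59 had a limma adjusted p under 0.05, with 0.19 as the smallest, where 0.0309% of all genes passed. At an unadjusted limma p under 0.05, 25 of 59 genes were higher, 42.4%, against 7.25% of all genes tested, and 0 were lower, against 9.35%. Both knockdown libraries lay above both control libraries in 42 of 59 genes, 71.2%, against 22.5% of all genes, and below them in 2, CDT1 and LIG1, against 27.7%. The count of 25 rests on few libraries: it was 15 without knockdown replicate 1, 15 without control replicate 0 and 8 without control replicate 1, while the share over all genes was then 5.95%, 5.36% and 2.98%.

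The libraries did not contribute equally. Knockdown replicate 1 had the highest value in 41 of the 59 genes and knockdown replicate 0 in 10. The lowest value was in control replicate 1 for 34 genes and in control replicate 0 for 18. Such counts were not made over all genes tested, so they cannot be read as particular to this set. The 59 genes summed to 1971 and 2077 FPKM in knockdown replicates 0 and 1 and to 1864 and 1845 FPKM in control replicates 0 and 1, so both knockdown sums were above both control sums. Sums over the whole table were 812554 and 853609 FPKM in knockdown replicates 0 and 1. They were 846038 and 813859 FPKM in control replicates 0 and 1, so knockdown replicate 1 also had the largest sum over the whole table. Of the 59 genes, 27 share exon bases with another gene, 22 of them on the opposite strand, and 11 have named pseudogenes, so the split of reads is uncertain there.

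**Figure D1:**
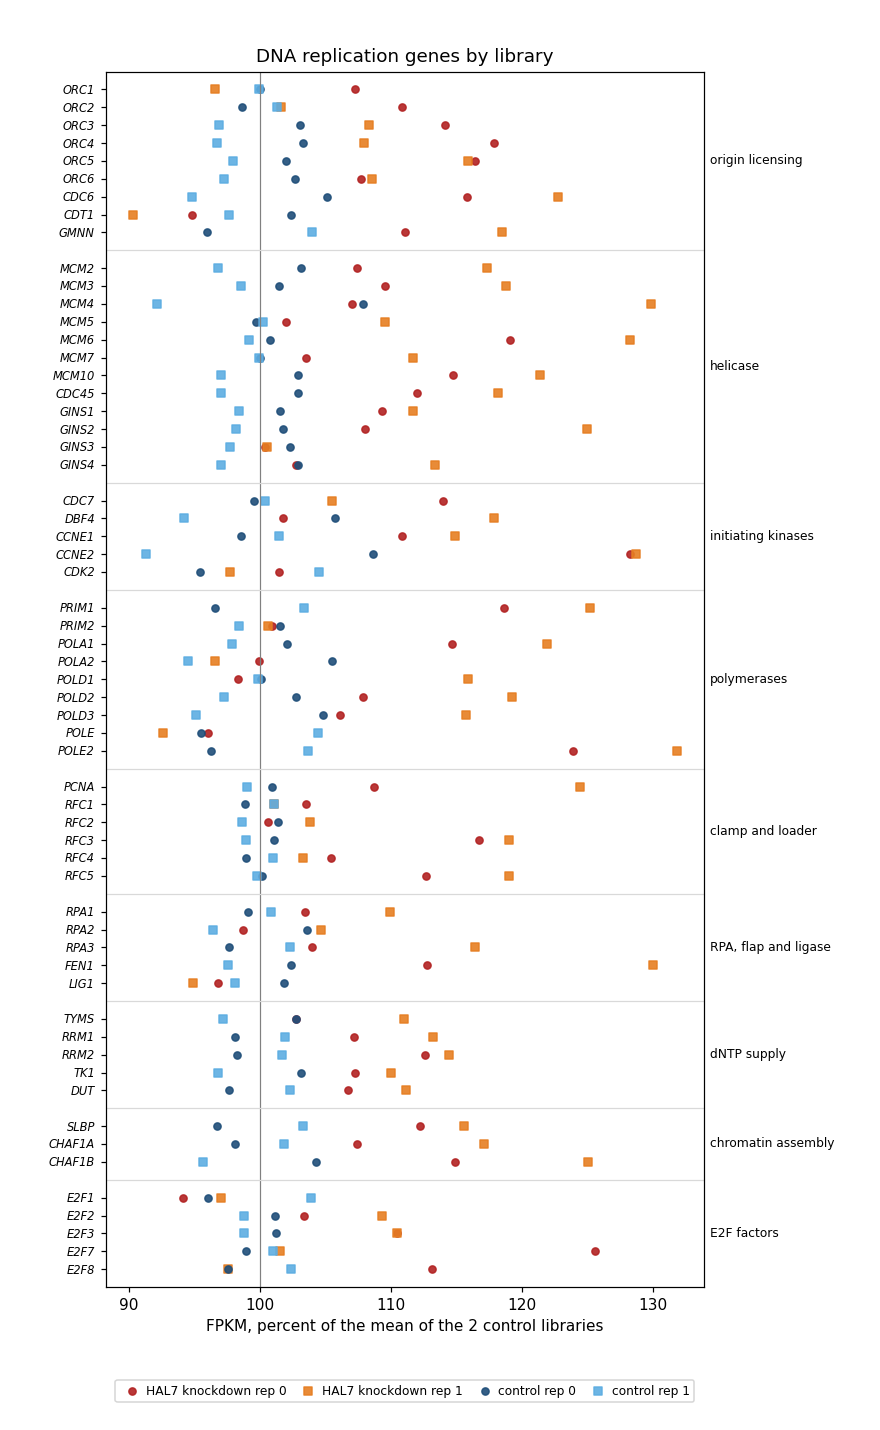
FPKM of each of the 59 genes in each library, as a percent of the mean of the 2 control libraries (x axis), with genes ordered by role (rows). Most red and orange points of the knockdown libraries lie right of the blue control points, with CDT1 and LIG1 as the 2 genes whose knockdown points both lie left of them.

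Promoters are shown for MCM6, PRIM1, POLE2 and RFC3, the 4 genes of smallest limma p, because many replication genes are known E2F targets and most of the set lay on 1 side. Sequences are from RefSeq on GRCh38.p14, from 250 bases before to 50 bases after the gene start, 5′ to 3′ on the strand of the gene. Capitals mark matches on either strand to TTTNNCGC, an E2F-type sequence, and to CCAAT, the sequence that NF-Y binds.
MCM6 promoter, chr2:135876394-135876693, minus strand: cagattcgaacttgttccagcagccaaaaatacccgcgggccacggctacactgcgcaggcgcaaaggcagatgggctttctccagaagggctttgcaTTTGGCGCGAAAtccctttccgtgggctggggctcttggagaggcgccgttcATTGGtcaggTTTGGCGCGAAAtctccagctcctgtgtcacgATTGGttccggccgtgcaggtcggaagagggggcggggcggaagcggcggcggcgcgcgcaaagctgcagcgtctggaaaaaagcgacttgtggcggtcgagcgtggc
PRIM1 promoter, chr12:56752274-56752573, minus strand: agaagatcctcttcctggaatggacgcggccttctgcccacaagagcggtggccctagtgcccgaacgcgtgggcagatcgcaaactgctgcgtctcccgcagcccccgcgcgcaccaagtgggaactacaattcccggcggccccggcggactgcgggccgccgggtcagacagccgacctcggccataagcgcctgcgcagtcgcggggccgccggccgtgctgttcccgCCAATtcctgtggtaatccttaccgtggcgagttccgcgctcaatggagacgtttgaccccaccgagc
POLE2 promoter, chr14:49688165-49688464, minus strand: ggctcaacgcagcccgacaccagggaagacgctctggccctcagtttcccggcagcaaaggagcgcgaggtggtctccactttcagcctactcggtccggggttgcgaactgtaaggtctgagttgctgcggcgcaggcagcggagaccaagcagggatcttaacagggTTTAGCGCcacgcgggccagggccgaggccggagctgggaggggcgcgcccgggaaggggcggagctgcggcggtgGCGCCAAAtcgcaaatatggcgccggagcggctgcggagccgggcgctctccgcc
RFC3 promoter, chr13:33817899-33818198, plus strand: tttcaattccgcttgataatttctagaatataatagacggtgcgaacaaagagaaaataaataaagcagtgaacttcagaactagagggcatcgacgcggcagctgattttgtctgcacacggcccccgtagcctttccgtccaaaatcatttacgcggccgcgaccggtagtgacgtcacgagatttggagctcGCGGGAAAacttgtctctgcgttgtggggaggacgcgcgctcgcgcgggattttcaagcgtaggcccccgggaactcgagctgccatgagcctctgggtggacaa
The MCM6 promoter held TTTGGCGC at 152 and 90 bases before the start, each overlapping a match on the opposite strand, GCGCGAAA, and both CCAAT matches there read ATTGG on the strand of the gene. POLE2 held 2 E2F-type matches, RFC3 held 1, and PRIM1 held none but had a CCAAT match 18 bases before the start. Of the 59 genes, 50 had a promoter entry, and 24 of these (48.0%) held TTTNNCGC, against 6.9% of 27305 promoters in all and 10.8% of those of tested genes. CCAAT was present in 26 of 50 (52.0%), against 35.7% of all promoters and 37.0% of those of tested genes. The GC box GGGCGG, on either strand, was in 70.0% of the 50, against 44.6% of all promoters and 71.0% of those of tested genes. The median log2 change was 0.13 in the 24 genes with the E2F-type sequence and 0.14 in the 26 without it. A match is a run of letters in this window and not a measured site.

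Licensing genes were mostly higher, with CDT1 on the other side. Of 9, 8 had a log2 change above 0, against 46.8% of all genes tested. At an unadjusted limma p under 0.05, 4 were higher, ORC4, ORC5, CDC6 and GMNN, against 7.25%. ORC5, a subunit of the origin recognition complex, had 14.2 and 14.1 FPKM in knockdown replicates 0 and 1 and 12.4 and 11.9 FPKM in control replicates 0 and 1. Its log2 change was 0.20 ± 0.06 (SE), with a limma adjusted p of 0.21. CDC6, the ATPase that helps to load the helicase, had 10.3 and 11.0 FPKM in knockdown and 9.39 and 8.47 FPKM in control libraries, a log2 change of 0.23 ± 0.07 (SE) with a limma adjusted p of 0.22. In both genes the groups did not overlap. Over the 9 genes, both knockdown libraries lay above both control libraries in 7, against 22.5% of all genes tested. GMNN encodes geminin, which binds CDT1 and blocks relicensing. GMNN stood at 28.5 and 30.3 FPKM in knockdown and 24.6 and 26.6 FPKM in control libraries, again without overlap, with a limma adjusted p of 0.24. CDT1, the helicase loading factor that geminin binds, was the most abundant of the 9 genes. It stood at 62.6 and 59.6 FPKM in knockdown libraries, below the 67.5 and 64.4 FPKM of control libraries, with a log2 change of -0.11 ± 0.05 (SE, limma adjusted p 0.37). The level of CDT1 relative to GMNN was thus 2.20 and 1.96 in knockdown and 2.75 and 2.42 in control libraries, a ratio chosen after its values were seen. Their transcripts differ in GC content, 64.9% in CDT1 and 43.6% in GMNN, and with the GC trend removed the log2 changes were -0.01 and 0.17.

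The 6 subunits of the origin recognition complex had log2 changes of 0.02 in ORC1 to 0.20 in ORC5, with a median of 0.12. ORC1, the subunit whose level cycles in human cells, had 15.7 and 14.1 FPKM in knockdown and 14.6 and 14.6 FPKM in control libraries, so its groups overlapped. In the other 5, ORC2 to ORC6, both knockdown libraries lay above both control libraries, against 22.5% of all genes tested. The log2 change of ORC1 was -0.05 without knockdown replicate 0, and that of ORC4 was then 0.11, against 0.17 with it. Control means ran from 8.03 FPKM in ORC3 to 19.1 FPKM in ORC4. ORC4 shares 430 exon bases with ACVR2A and 157 with MBD5 on the opposite strand, and strand-specific counting is not stated.

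All 12 helicase genes had a log2 change above 0, against 46.8% of all genes tested, with a median of 0.18. At an unadjusted limma p under 0.05, 6 were higher, against 7.25%: MCM2, MCM3, MCM6, MCM10, CDC45 and GINS2. MCM6, a subunit of the MCM2 to MCM7 ring, had the smallest p of the 59 genes. It stood at 33.4 and 36.0 FPKM in knockdown replicates 0 and 1 and at 28.3 and 27.8 FPKM in control replicates 0 and 1. The means were 34.7 ± 1.83 FPKM in knockdown and 28.0 ± 0.311 FPKM in control libraries (SD, n = 2 each). Their ratio was 1.24, and the log2 change was 0.30 ± 0.06 (SE, limma adjusted p 0.19). MCM10, which helps to activate the helicase, had 11.8 and 12.5 FPKM in knockdown and 10.6 and 9.98 FPKM in control libraries, with a limma adjusted p of 0.21. CDC45, a component of the active helicase, had 21.0 and 22.2 FPKM in knockdown and 19.3 and 18.2 FPKM in control libraries, with a limma adjusted p of 0.22. In all 3 genes both knockdown libraries lay above both control libraries. This held in 9 of the 12 helicase genes, against 22.5% of all genes tested.

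Within the ring the subunits differed in level more than the groups did. MCM7 was the most abundant, at 168 and 181 FPKM in knockdown and 162 and 162 FPKM in control libraries, and MCM6 was the lowest of the 6. MCM7 was 5.02 and 5.03 times as high as MCM6 in knockdown libraries and 5.73 and 5.82 times in control libraries. MCM7 shares 392 exon bases with AP4M1 on the opposite strand, which had 13.7 and 12.6 FPKM in knockdown and 13.8 and 14.1 FPKM in control libraries. The other ring subunits had knockdown-to-control ratios of 1.06 in MCM5, 1.12 in MCM2, 1.14 in MCM3 and 1.18 in MCM4. MCM4 had the widest spread of the ring, at 72.6 and 88.1 FPKM in knockdown and 73.1 and 62.5 FPKM in control libraries, so its groups overlapped. Among the GINS subunits, which join CDC45 on the helicase, GINS1 and GINS2 were separated, with ratios of 1.11 and 1.17, and GINS3 and GINS4 overlapped, with ratios of 1.00 and 1.08. The log2 change of GINS3 was 0.01 and turned to -0.02 with the GC trend removed or without control replicate 1. Without knockdown replicate 1 the log2 changes of GINS2 and MCM2 were 0.10 and 0.10, against 0.20 and 0.16 with it.

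Of the 5 genes of the kinases that fire origins, 4 had a log2 change above 0, against 46.8% of all genes tested. Both knockdown libraries lay above both control libraries in 3, against 22.5%. CCNE2, a cyclin that activates CDK2 at the entry into S phase, had a log2 change of 0.32 ± 0.09 (SE, limma adjusted p 0.20). Leaving out control replicate 1 gave a log2 change of 0.21. CCNE2 stood at 7.83 and 7.86 FPKM in knockdown and 6.63 and 5.58 FPKM in control libraries, and the groups did not overlap. CCNE2 shares 1629 exon bases with INTS8 on the opposite strand, which averaged 57.0 FPKM in knockdown and 51.6 FPKM in control libraries, and whether counting used strand is not stated. Its partner cyclin CCNE1 had 3.98 and 4.12 FPKM in knockdown and 3.54 and 3.64 FPKM in control libraries, also without overlap, with a limma adjusted p of 0.37. CDK2, the kinase that both cyclins activate, had 44.3 and 42.6 FPKM in knockdown and 41.6 and 45.6 FPKM in control libraries. Its log2 change was -0.0042, and was above 0 with median centring, quantile normalization, the GC trend removed, or without knockdown replicate 1 or control replicate 1. CDC7, the kinase that DBF4 activates to phosphorylate the MCM ring, had 17.7 and 16.3 FPKM in knockdown and 15.4 and 15.5 FPKM in control libraries, with a limma adjusted p of 0.36. DBF4 overlapped between groups, with a ratio of 1.10.

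In primase and in polymerases alpha and epsilon, the groups were separated in PRIM1, POLA1 and POLE2 and overlapped in PRIM2, POLA2 and POLE. In polymerase delta, POLD1, POLD2 and POLD3 all had a log2 change above 0. Of the 9 genes, 7 had a log2 change above 0, against 46.8% of all genes tested. Both knockdown libraries lay above both control libraries in 5, against 22.5%. Differences between subunits were not tested. PRIM1, the catalytic primase subunit, had 37.9 and 40.0 FPKM in knockdown and 30.9 and 33.0 FPKM in control libraries, a log2 change of 0.28 ± 0.06 (SE) with a limma adjusted p of 0.19. PRIM2, the large primase subunit, had 11.8 and 11.8 FPKM in knockdown and 11.9 and 11.5 FPKM in control libraries, so its groups overlapped. The PRIM1 level relative to PRIM2 was 3.21 and 3.40 in knockdown and 2.60 and 2.86 in control libraries, a ratio chosen after its values were seen. GC content is 40.7% in PRIM1 and 41.6% in PRIM2, and its part in the ratio was not tested. The log2 change of PRIM2 was 0.01 and turned to -0.03 with the GC trend removed and to -0.01 without control replicate 1. PRIM1 shares 362 exon bases with AC117378.1 on the same strand, 132 with HSD17B6 on the opposite strand and 33 with NACA on the same strand, and NACA stood at a mean of 3754 FPKM in knockdown and 3658 FPKM in control libraries.

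POLE2, an accessory subunit of polymerase epsilon, had 8.77 and 9.33 FPKM in knockdown and 6.81 and 7.34 FPKM in control libraries. Its log2 change was 0.32 ± 0.07 (SE), a ratio of 1.28, with a limma adjusted p of 0.19. POLE, the catalytic subunit of the same enzyme, had 41.2 and 39.7 FPKM in knockdown and 40.9 and 44.8 FPKM in control libraries, with a log2 change of -0.08 ± 0.06 (SE, limma adjusted p 0.54). The groups were separated in POLE2 and overlapped in POLE. GC content is 43.7% in POLE2 and 55.6% in POLE, and with the GC trend removed the log2 changes were 0.29 and -0.04. POLA1, the catalytic subunit of polymerase alpha, had 10.9 and 11.6 FPKM in knockdown and 9.73 and 9.33 FPKM in control libraries, with a limma adjusted p of 0.21. POLA2, its accessory subunit, had 19.9 and 19.2 FPKM in knockdown and 21.0 and 18.8 FPKM in control libraries. POLA2 overlapped between groups, and its log2 change of -0.02 turned to 0.02 with the GC trend removed, and was also above 0 without knockdown replicate 1 or control replicate 0. POLD2, an accessory subunit of polymerase delta, was the most abundant of the 9 genes, at 82.0 and 90.6 FPKM in knockdown and 78.0 and 73.9 FPKM in control libraries, with a limma adjusted p of 0.26. POLD1, the catalytic subunit of that enzyme, and POLD3 stood at ratios of 1.07 and 1.11, and the groups overlapped in POLD1, whose log2 change was 0.09, or -0.02 without knockdown replicate 1. Without that library the log2 change of POLD2 was 0.11.

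**Figure D2:**
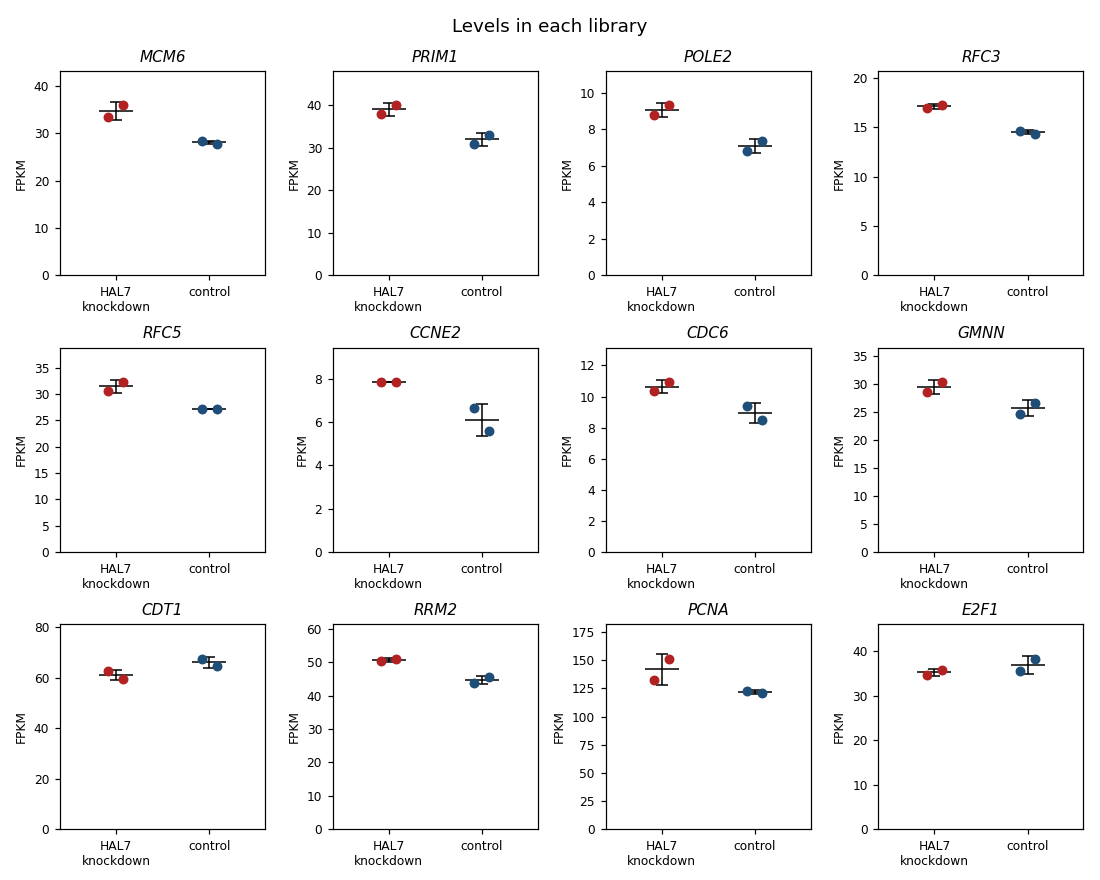
FPKM in each library (points) for 12 of the genes, with the mean and SD of each group of 2 libraries (black lines), knockdown left and control right, each y axis starting at 0. In 10 panels the knockdown points lie above both control points, while in the CDT1 panel they lie below and in the E2F1 panel the groups overlap. The 12 genes are a selection, so the share of separated panels is not that of the set. Of all 59 genes, both knockdown libraries lay above both control libraries in 42 and below them in 2, and the groups overlapped in 15. Over all genes tested, 22.5% had both knockdown libraries above both control libraries.

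PCNA, RFC3 and RFC5 were higher in both knockdown libraries, and the other loader subunits differed little. Over the 6 genes, both knockdown libraries lay above both control libraries in 4, against 22.5% of all genes tested. PCNA, the sliding clamp, had 132 and 152 FPKM in knockdown and 123 and 121 FPKM in control libraries, with a log2 change of 0.22 ± 0.07 (SE, limma adjusted p 0.24). RFC3 and RFC5 encode small subunits of the loader that opens the clamp. RFC3 stood at 16.9 and 17.3 FPKM in knockdown and 14.7 and 14.4 FPKM in control libraries, with a limma adjusted p of 0.20. RFC5 stood at 30.6 and 32.3 FPKM in knockdown and 27.2 and 27.1 FPKM in control libraries, also with a limma adjusted p of 0.20. The groups did not overlap in these 3 genes, and in RFC3 and RFC5 the gap between them exceeded the spread within each. Without knockdown replicate 1 the log2 change of PCNA was 0.12. RFC1, RFC2 and RFC4 had ratios of 1.02, 1.02 and 1.04, with overlap in RFC1 and RFC2, and the log2 change of RFC1 was 0.03, or -0.01 with the GC trend removed. RFC5 shares 186 exon bases with WSB2 on the opposite strand, which stood at a ratio of 0.907. PCNA has 3 named pseudogenes and RFC3 and RFC5 have 1 each, so the split of reads between copies is uncertain.

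FEN1 and LIG1, which act one after the other on the lagging strand, lay on opposite sides. FEN1, the flap endonuclease, had 21.4 and 24.7 FPKM in knockdown and 19.5 and 18.6 FPKM in control libraries, a log2 change of 0.26 ± 0.08 (SE) with a limma adjusted p of 0.21. LIG1, the ligase that seals the nicks, had 35.0 and 34.3 FPKM in knockdown libraries, below the 36.9 and 35.5 FPKM of control libraries, with a log2 change of -0.06 ± 0.05 (SE, limma adjusted p 0.60). Both genes are GC-rich, 53.7% in FEN1 and 56.4% in LIG1, and their log2 changes with the GC trend removed were 0.30 and -0.01. Without knockdown replicate 1 the log2 change of FEN1 was 0.17. The subunits of RPA, which coats single-stranded DNA, differed among themselves. RPA3 had 23.3 and 26.1 FPKM in knockdown and 21.9 and 22.9 FPKM in control libraries, and RPA1 had 31.5 and 33.5 FPKM in knockdown and 30.2 and 30.7 FPKM in control libraries. Neither pair of groups overlapped, with limma adjusted p of 0.39 and 0.45. With FEN1, both knockdown libraries lay above both control libraries in 3 of the 5 genes of this role, against 22.5% of all genes tested. They lay below in 1, LIG1, against 27.7%. RPA2, at 35.0 and 37.1 FPKM in knockdown and 36.7 and 34.1 FPKM in control libraries, overlapped, and its log2 change of 0.02 turned to -0.02 without knockdown replicate 1 and -0.03 without control replicate 1.

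In all 5 genes of nucleotide supply both knockdown libraries lay above both control libraries, against 22.5% of all genes tested. Their log2 changes were 0.09 in TYMS to 0.18 in RRM2. RRM2, the S-phase subunit of ribonucleotide reductase, had 50.3 and 51.2 FPKM in knockdown and 43.9 and 45.5 FPKM in control libraries, with a limma adjusted p of 0.21. RRM1, its large subunit, had 44.3 and 46.8 FPKM in knockdown and 40.5 and 42.1 FPKM in control libraries, with a limma adjusted p of 0.29. DUT, the dUTPase that keeps uracil out of DNA, was the most abundant of the 5, at 117 and 122 FPKM in knockdown and 107 and 112 FPKM in control libraries, with a limma adjusted p of 0.32. TK1, thymidine kinase, and TYMS, thymidylate synthase, stood at ratios of 1.09 and 1.07, with limma adjusted p of 0.36 and 0.47. In TYMS the margin was narrow: knockdown replicate 0 and control replicate 0 were both at 57.9 FPKM. DUT has 8 named pseudogenes, RRM2 has 3 and TYMS has 2, and TYMS shares 967 exon bases with ENOSF1 on the opposite strand, which stood at a ratio of 0.993.

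In each of the 3 genes of histone supply and assembly both knockdown libraries lay above both control libraries, against 22.5% of all genes tested. Each was higher at an unadjusted limma p under 0.05, against 7.25%. SLBP, which binds the stem-loop of histone messages, had 69.5 and 71.6 FPKM in knockdown and 59.9 and 63.9 FPKM in control libraries. CHAF1B and CHAF1A encode subunits of the chromatin assembly factor that deposits histones behind the fork. CHAF1B had 8.02 and 8.72 FPKM in knockdown and 7.28 and 6.68 FPKM in control libraries. CHAF1A had 21.9 and 23.8 FPKM in knockdown and 20.0 and 20.7 FPKM in control libraries. The log2 changes were 0.19, 0.23 and 0.16, with limma adjusted p of 0.22, 0.23 and 0.28. That of CHAF1A was 0.10 without knockdown replicate 1.

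Of the 5 E2F genes, 4 had a log2 change above 0, against 46.8% of all genes tested. At an unadjusted limma p under 0.05, 1 was higher, E2F3, against 7.25%. E2F1, an activator of replication genes and the most abundant of the 5, had 34.8 and 35.8 FPKM in knockdown and 35.5 and 38.4 FPKM in control libraries. Its log2 change was -0.06 ± 0.06 (SE), which turned to 0.02 with the GC trend removed, and its groups overlapped. E2F3, another activator, had 17.9 and 17.9 FPKM in knockdown and 16.4 and 16.0 FPKM in control libraries, with a log2 change of 0.14 ± 0.05 (SE, limma adjusted p 0.28). E2F2, the last activator, had 21.6 and 22.8 FPKM in knockdown and 21.1 and 20.6 FPKM in control libraries, with a limma adjusted p of 0.49. In E2F2 and E2F3 the groups did not overlap. Over the 5 genes, both knockdown libraries lay above both control libraries in 3, against 22.5% of all genes tested. E2F7, an atypical E2F that represses transcription, had 3.69 and 2.98 FPKM in knockdown and 2.91 and 2.97 FPKM in control libraries, where knockdown replicate 1 exceeded the controls by less than the controls differed. E2F8, its relative, had a ratio of 1.05 with overlap, and its log2 change of 0.07 turned to -0.03 without knockdown replicate 0.

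**Figure D3:**
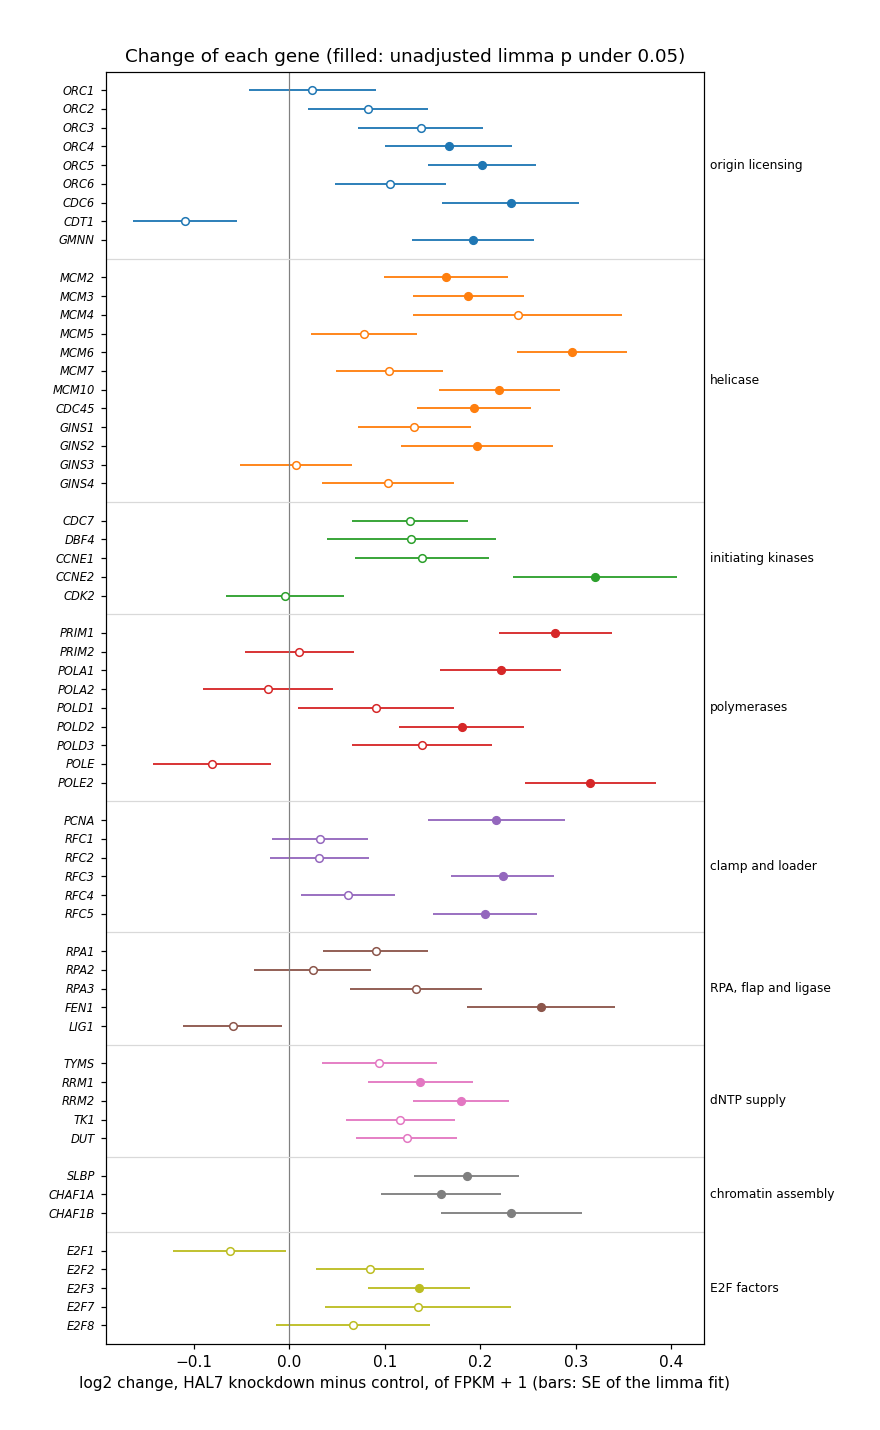
Log2 change of FPKM + 1, knockdown minus control (x axis), with its SE from the limma fit (bars), for the 59 genes by role (rows and colours). Filled points are the 25 genes with an unadjusted p under 0.05, and the 6 points left of 0 are CDT1, CDK2, POLA2, POLE, LIG1 and E2F1.

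By role, the median log2 change was 0.19 in histone supply and assembly, 0.18 in the helicase, 0.14 in licensing, 0.14 in polymerases, 0.13 in clamp and loader, 0.13 in initiating kinases, 0.12 in nucleotide supply, 0.09 in RPA, FEN1 and LIG1 and 0.08 in E2F genes. These medians rest on 3 to 12 genes each, and differences between roles were not tested.

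GC content of the transcript moved with the log2 change. Across 12499 genes, which are not independent replicates, Spearman's rho was -0.41 and Pearson's r -0.29, and across the 59 genes they were -0.36 and -0.44. The median GC content was 45.9% in the 59 genes and 48.6% in all genes tested. Below 45% GC, all 23 replication genes had a log2 change above 0, against 3035 of 4625 genes tested, and their median was 0.14, against 0.05. At 55% GC or more, 8 of 12 replication genes did, against 962 of 3737 genes tested, and their median was 0.09, against -0.07. With the GC trend removed from each library, 28 of 59 genes were higher at an unadjusted limma p under 0.05, against 6.42% of 12499 genes, and 22 of these were among the 25. The median log2 change of the 59 genes was then 0.12, and 0 genes were lower, against 7.31%. GC-rich genes such as POLD1 and TK1 had log2 changes of 0.19 and 0.20 after that step, against 0.09 and 0.12 before.

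**Figure D4:**
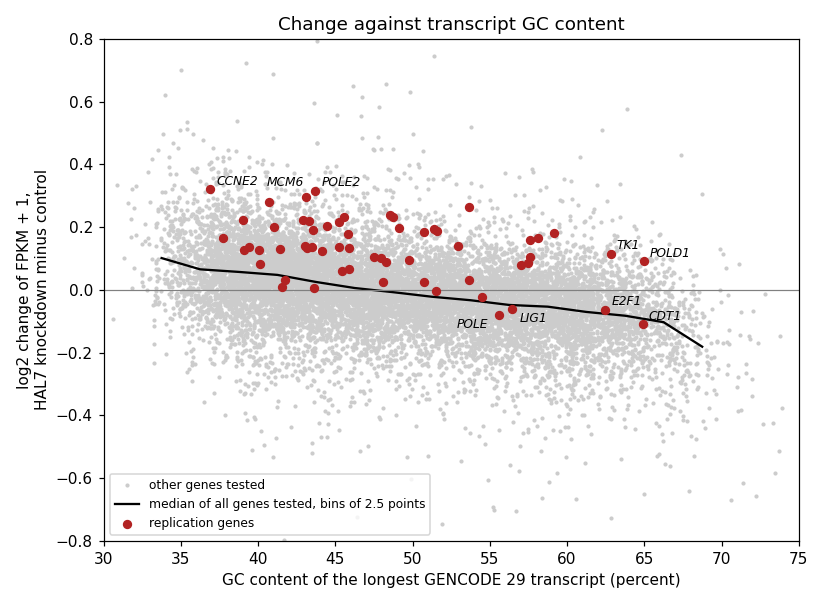
Log2 change of FPKM + 1, knockdown minus control (y axis), against GC content of the longest annotated transcript (x axis), for the 59 replication genes (red) and other genes tested (grey), with the median of all genes in bins of 2.5 points that hold at least 100 genes (line). Most red points lie above the line along its length; 28 genes beyond 0.8 on the y axis and 4 others outside 30% to 75% GC are not drawn.

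Other genes of the same pathway, from a list that does not overlap the 59, lay mostly on the same side. Of 62 entries, 59 matched a gene ID and were tested. Of these, 51 had a log2 change above 0, against 46.8% of all genes tested, and the median was 0.09. At an unadjusted limma p under 0.05, 15 were higher (25.4%, against 7.25% of all genes tested) and 2 were lower (against 9.35%), and 0 passed the adjusted threshold. DCK, deoxycytidine kinase of the salvage pathway, had 33.7 and 32.9 FPKM in knockdown and 28.3 and 25.8 FPKM in control libraries, with a limma adjusted p of 0.19. FBXO5, an inhibitor of the anaphase-promoting complex, had 24.4 and 25.0 FPKM in knockdown and 20.9 and 20.7 FPKM in control libraries. CCNA2, the S-phase and mitotic cyclin A, and ASF1A, a histone chaperone, stood at ratios of 1.25 and 1.19. LRWD1, which binds the origin recognition complex, was on the other side, with 13.3 and 14.7 FPKM in knockdown and 16.6 and 16.8 FPKM in control libraries, a log2 change of -0.24 ± 0.07 (SE, limma adjusted p 0.20). CIZ1, a cyclin-binding replication factor, DBF4B and POLD4 stood at ratios of 0.908, 0.951 and 0.955. Of these 4 genes, LRWD1, CIZ1 and DBF4B lay below both control libraries, and their transcripts are GC-rich, at 62.2%, 58.4% and 59.5%. GC content is lower in DCK, FBXO5, CCNA2 and ASF1A, at 38.8%, 34.2%, 42.1% and 34.9%. RECQL4 of the same list, at 65.5% GC, was on the higher side, with a ratio of 1.17. Values of this list with the GC trend removed are not given here, and the part of GC content was not tested.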

How the data were processed

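Polyadenylated RNA of 4 BLaER1 libraries, each from 1 µg of total RNA per the labels' protocols, gave 1 deposited value per gene and library. The deposited values were read as FPKM. The table does not name its unit, but its ID column carries a Cuffdiff name, values are fractional, and library sums were 812554 to 853609. The submitters' processing notes name build hg19 and the tools TopHat2 2.0.14, Bowtie2 2.2.5 and Cuffdiff 2.2.1, without options, annotation or scaling.

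IDs were named by Ensembl ID, and GC content came from GENCODE 29 (12499 of 12935 genes tested, 96.6%). GENCODE and RefSeq positions are on GRCh38, not the authors' build. Depth was read in 1214 genes with 1 transcript of at least 2500 nt, where 72.8% to 83.3% of low values lay within 0.15 of a whole multiple; lengths used by the authors are unknown, so no count test was run.

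limma 3.58.1 (R 4.3.3) compared the groups on log2(FPKM + 1), which understates the change of low genes. Genes needed a mean of 1 FPKM or more, HAL7 was kept regardless, a mean-variance trend was used, and two-sided p were adjusted by Benjamini-Hochberg over all genes. The fit had 2 residual degrees of freedom. It was also run on simulated data with independent scatter and with changes larger than those of the 59 genes. That run therefore does not show how the fit performs on changes of their size. An exact test of 2 against 2 libraries cannot go below p = 0.333. Lists were described without a test. The 59 genes and the lists were chosen with earlier results of these data known. Values per library are given for the 3 genes of smallest p and the most abundant gene of each role and for genes with a log2 change below 0; ORC1, MCM4 and PRIM2 and all ratios between genes were added after their values were seen. Alternatives were pseudocounts of 0.1 and 5, other filters, median centring, quantile normalization, no variance trend, the replicate block, the GC trend removed by lowess (span 0.3), and each library left out.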

Additional observations from a re-analysis of the deposited data

How the results depend on the processing

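Of the 14 alternative settings, 0 gave any of the 59 genes an adjusted p under 0.05 in limma, the smallest being 0.11 without knockdown replicate 0. The median log2 change of the 59 genes stayed within the spread of the libraries under all 14, from 0.10 without knockdown replicate 1 to 0.16 without knockdown replicate 0, with 51 to 54 genes above 0. The count of genes higher at an unadjusted p under 0.05, 25 as reported, ran from 8 without control replicate 1 to 29 without knockdown replicate 0, with 15 without knockdown replicate 1 or control replicate 0, and the count of lower genes was 0 in each setting. Over all genes, 4 were called as reported, 2 with a pseudocount of 0.1, 0 without a filter, 1 with a mean of at least 5 FPKM and 11 to 22 when a library was left out (22 without knockdown replicate 0, 12 without knockdown replicate 1, and 11 without control replicate 0 and 11 without control replicate 1); the cause was not tested. Without a filter, 4.55% of genes were higher at an unadjusted p under 0.05. The mean of at least 5 FPKM removed 2 of the 59 genes. The fits with a library left out take the spread of the single remaining library from the other group. Replicate numbers are shared by the groups, but deviations of same-numbered libraries correlated at 0.122 across genes with only 2 pairs, so the numbers were not taken to pair the libraries. With the replicate block, 22 of the 59 genes were higher at an unadjusted limma p under 0.05, against 7.26% of all genes tested. Over all genes, 19 were then called. With the GC trend removed as well, 25 of the 59 were higher, against 5.9%, and 5 genes were called. Depth was lowest in control replicate 0.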

Other observations

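Mitotic genes, compared side by side as genes that peak later in the cell cycle, had log2 changes mostly above 0. Of 20 markers, all tested, 18 did, against 46.8% of all genes tested, with a median of 0.08. The groups overlapped in 11, and both knockdown libraries lay above both control libraries in 9, against 22.5% of all genes tested. At an unadjusted limma p under 0.05, 7 were higher (35.0%, against 7.25% of all genes) and 0 were lower (against 9.35%), and 0 passed the adjusted threshold. CDK1, the mitotic kinase, had 47.4 and 46.3 FPKM in knockdown and 38.4 and 33.0 FPKM in control libraries, with a limma adjusted p of 0.19. KIF11 and TTK, a spindle motor and a checkpoint kinase, stood at ratios of 1.23 and 1.22. PLK1 and CCNB1, the 2 markers with a log2 change below 0, stood at ratios of 0.995 and 0.997, and CCNB2 at 1.15. GC content is 37.0% in CDK1, 38.3% in KIF11, 40.8% in TTK, 44.3% in CCNB2, 43.2% in CCNB1 and 57.1% in PLK1. The list overlaps none of the 59 replication genes, and whether it differs from them was not tested.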
